A study of Mus musculus with 55 samples.

Results

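The interferon-inducible Ifi200 genes and Aim2 were followed in infarcted mouse heart tissue under type 1 and type 2 diabetes. The 9 genes were Ifi203 (ENSMUSG00000039997), Ifi204 (ENSMUSG00000073489), Ifi205 (ENSMUSG00000054203), Ifi206 (ENSMUSG00000037849), Ifi207 (ENSMUSG00000073490), Ifi209 (ENSMUSG00000043263), Ifi211 (ENSMUSG00000026536), Ifi213 (ENSMUSG00000073491) and Aim2 (ENSMUSG00000037860). They were matched by symbol to the Ensembl identifiers of the count tables, and all 9 were present among 56941 genes in the day 7 table and among 57186 genes in the day 28 table. The set was chosen by measured values of these libraries, but the contrast behind the choice is not stated. Ifi213 had been named among the largest rises of type 2 over non-diabetic tissue at day 7. That contrast was therefore taken to be the one that chose the genes, and is called so below. Its values are given as a description, with no test. Whether day 28 values also entered the choice is not known, so the day 28 p-values may not be independent of it either. All 9 genes passed the filter on low counts on both days.

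The Ifi200 proteins, also called the HIN-200 or PYHIN family, carry a HIN domain that binds DNA, and many also carry a pyrin domain that binds other pyrin domains. Most of their genes are switched on by type I interferon, which acts on an element in the promoter called the interferon-stimulated response element. Aim2 detects double-stranded DNA in the cytosol and assembles an inflammasome with the adaptor Pycard and caspase 1, and Ifi204 (protein p204) has been described as a DNA sensor upstream of STING. In an infarct, dying cells release DNA, and monocytes and macrophages that enter the scar are a known source of interferon-stimulated transcripts.

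Bulk RNA had been sequenced from left ventricular infarct of C57BL/6J mice after permanent ligation of a coronary artery. At day 7 there were 8 libraries of type 2 diabetic, 8 of type 1 diabetic and 8 of non-diabetic mice, and at day 28 there were 10, 10 and 11. The library names carry "lo STZ HFFD" for type 2, "hi STZ" for type 1 and "Ctrl" for non-diabetic mice, and these abbreviations are not spelled out in the labels; all mice had an infarct, and no uninjured heart is compared here. The labels give no age. The question set by the series is how type 1 and type 2 diabetes differ in the infarct, and groups were compared within a day. Day and sequencing project cannot be told apart, so a difference between the days may also be one between projects.

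The promoters of the family are shown first, because most of them hold the same interferon element. RefSeq (GRCm38.p6) lists a promoter window, from 250 bases before to 50 bases after the start site, for 8 of the 9 genes; Ifi204 is the other. The core of the interferon-stimulated response element, searched as GAAANNGAA on both strands, was found in 6 of these 8 genes (Ifi203, Ifi205, Ifi206, Ifi207, Ifi211 and Ifi213), against 8.56% of all 32851 windows of that length. In 4 of the 6 the matching letters were identical, GAAATCGAA, a word held by 30 of the 32851 windows (0.0913%); the word was picked out after the sequences had been read. The search motif can overlap GGAANNGAA, the composite ETS and IRF element, but that motif was in none of the 8 against 8.24% of windows. The core of the interferon gamma activated sequence, TTCNNNGAA, was also in none of the 8, against 8.3% of windows. Below are 49 bases around the shared word in 7 genes, 5′ to 3′ on the strand of the gene, with capitals marking the word or its nearest match; positions in a substitution count from 1 at the 5′ end of the word.
Ifi203 (chr1:173942499-173942547, minus strand, word at -35): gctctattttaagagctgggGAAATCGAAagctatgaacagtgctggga
Ifi206 (chr1:173491330-173491378, minus strand, word at -40): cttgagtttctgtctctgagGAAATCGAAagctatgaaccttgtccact
Ifi207 (chr1:173741822-173741870, minus strand, word at -41): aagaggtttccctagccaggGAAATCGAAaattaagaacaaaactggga
Ifi213 (chr1:173599317-173599365, minus strand, word at -73): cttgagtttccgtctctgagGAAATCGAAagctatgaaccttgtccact
Ifi205 (chr1:174031861-174031909, minus strand, -134, C6T): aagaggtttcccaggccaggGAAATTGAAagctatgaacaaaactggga
Ifi211 (chr1:173913055-173913103, minus strand, -37, C6T): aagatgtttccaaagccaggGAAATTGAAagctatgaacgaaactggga
Ifi209 (chr1:173630760-173630808, plus strand, -79, G1T): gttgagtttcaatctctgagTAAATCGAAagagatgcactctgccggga

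Ifi209 thus lacked the searched core by 1 letter at the place where its relatives held it. Aim2 had no stretch closer than 3 letters to the word in the 250 bases before its start site. These bases are given for Ifi213, with the match in capitals, and for Aim2, with none.
Ifi213 (chr1:173599273-173599522, minus strand): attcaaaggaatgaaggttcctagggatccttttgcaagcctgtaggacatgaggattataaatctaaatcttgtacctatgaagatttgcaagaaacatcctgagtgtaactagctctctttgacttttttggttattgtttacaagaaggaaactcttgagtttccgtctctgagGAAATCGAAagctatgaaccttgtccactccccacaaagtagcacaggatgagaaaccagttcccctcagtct
Aim2 (chr1:173420354-173420603, plus strand): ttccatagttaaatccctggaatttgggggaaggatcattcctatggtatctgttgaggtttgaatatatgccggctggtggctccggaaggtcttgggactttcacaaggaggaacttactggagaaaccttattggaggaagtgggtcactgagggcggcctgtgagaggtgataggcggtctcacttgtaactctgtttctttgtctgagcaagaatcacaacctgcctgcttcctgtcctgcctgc

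The windows of Ifi206 and Ifi213 were 88.4% identical over 267 bases without gaps, and that of Ifi213 was 98.9% identical over 285 bases to the window of Ifi208, a family gene outside the 9. The shared word was also in windows of Ifi208, Ifi214 and Mndal, family genes outside the 9, which are among the 30 windows that hold it. It is thus not particular to the 9 genes. Windows that are near copies are not independent, so the shares of all windows are given only as a description. A match is a description of letters and not evidence of binding.

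**Figure D1:**
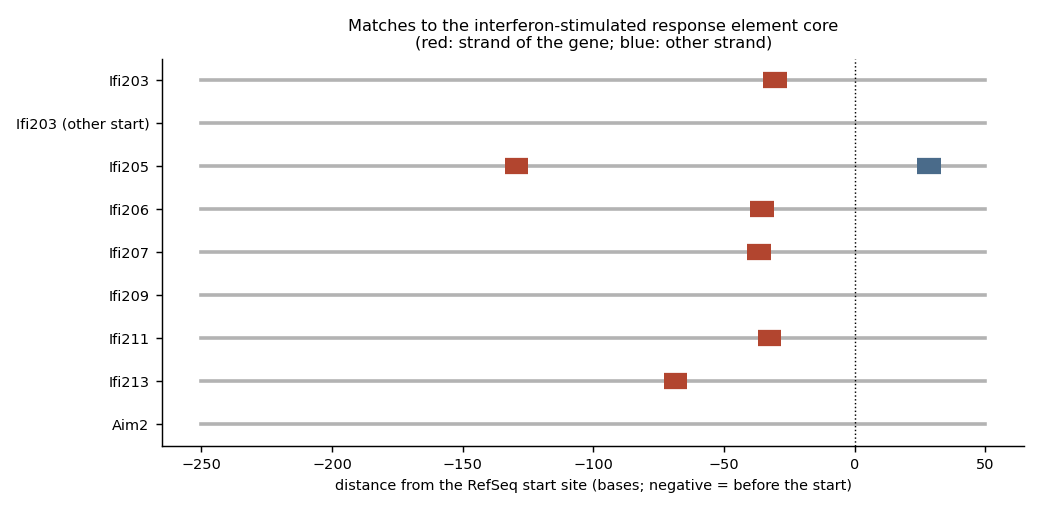
Matches to the interferon-stimulated response element core in the promoter windows of 8 genes, by distance in bases from the RefSeq start site (x axis); each grey line is 1 window, red marks the strand of the gene and blue the other strand. Ifi203, Ifi206, Ifi207 and Ifi211 hold the match between -41 and -35, Ifi213 at -73 and Ifi205 at -134 and, on the other strand, at 24, while Ifi209, Aim2 and a further start of Ifi203 hold none.

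The depth of a library was 30812809 to 48187379 counts in type 2, 31322847 to 51158036 in type 1 and 10756242 to 46812053 in non-diabetic tissue at day 7. At day 28 it was 48105347 to 92869315 counts in type 2, 57440760 to 89553708 in type 1 and 57979612 to 84380994 in non-diabetic tissue. Cardiomyocyte markers were present in every group, with summed levels of 1940 to 28600 counts-per-million (CPM, with library sizes scaled by TMM) at day 7 and 10800 to 63400 CPM at day 28. A pair of diabetic libraries stood apart by markers of other cells: type 1 replicate 4 at day 7 held 4000 CPM of 7 B cell markers and 924 CPM of 6 adipocyte markers, and type 2 replicate 4 at day 28 held 7750 CPM of the B cell markers and 106 CPM of 8 T cell markers. Results that change without them are given with and without them. In bulk tissue, fewer cells of a type and less RNA per cell cannot be told apart.

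Per kilobase of exon, Ifi207 had the highest median level among the 9 genes in type 2 tissue at day 7, with 28.0 to 38.9 CPM per kb and a median of 33.1. Ifi204 followed with a median of 23.7 CPM per kb, Ifi211 with 16.7, Ifi203 with 16.1 and Ifi209 with 11.5, and then Aim2 with 5.3, Ifi205 with 4.36, Ifi206 with 3.96 and Ifi213 with 2.87. The libraries of neighbouring genes in this order overlapped, except between Ifi204 (lowest 21.3) and Ifi211 (highest 19.5) and between Ifi209 (lowest 9.41) and Aim2 (highest 6.29). In non-diabetic tissue at day 28 the order of the medians was Ifi203 (8.05 CPM per kb), Ifi207 (7.54), Ifi211 (6.46), Ifi204 (5.92), Ifi205 (3.32), Ifi209 (1.91), Aim2 (1.45), Ifi213 (0.558) and Ifi206 (0.539). There, neighbours overlapped throughout, except between Aim2 (lowest 0.982) and Ifi213 (highest 0.783). Ifi206 and Ifi213 were thus the genes with the lowest levels per length in both groups.

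**Figure D2:**
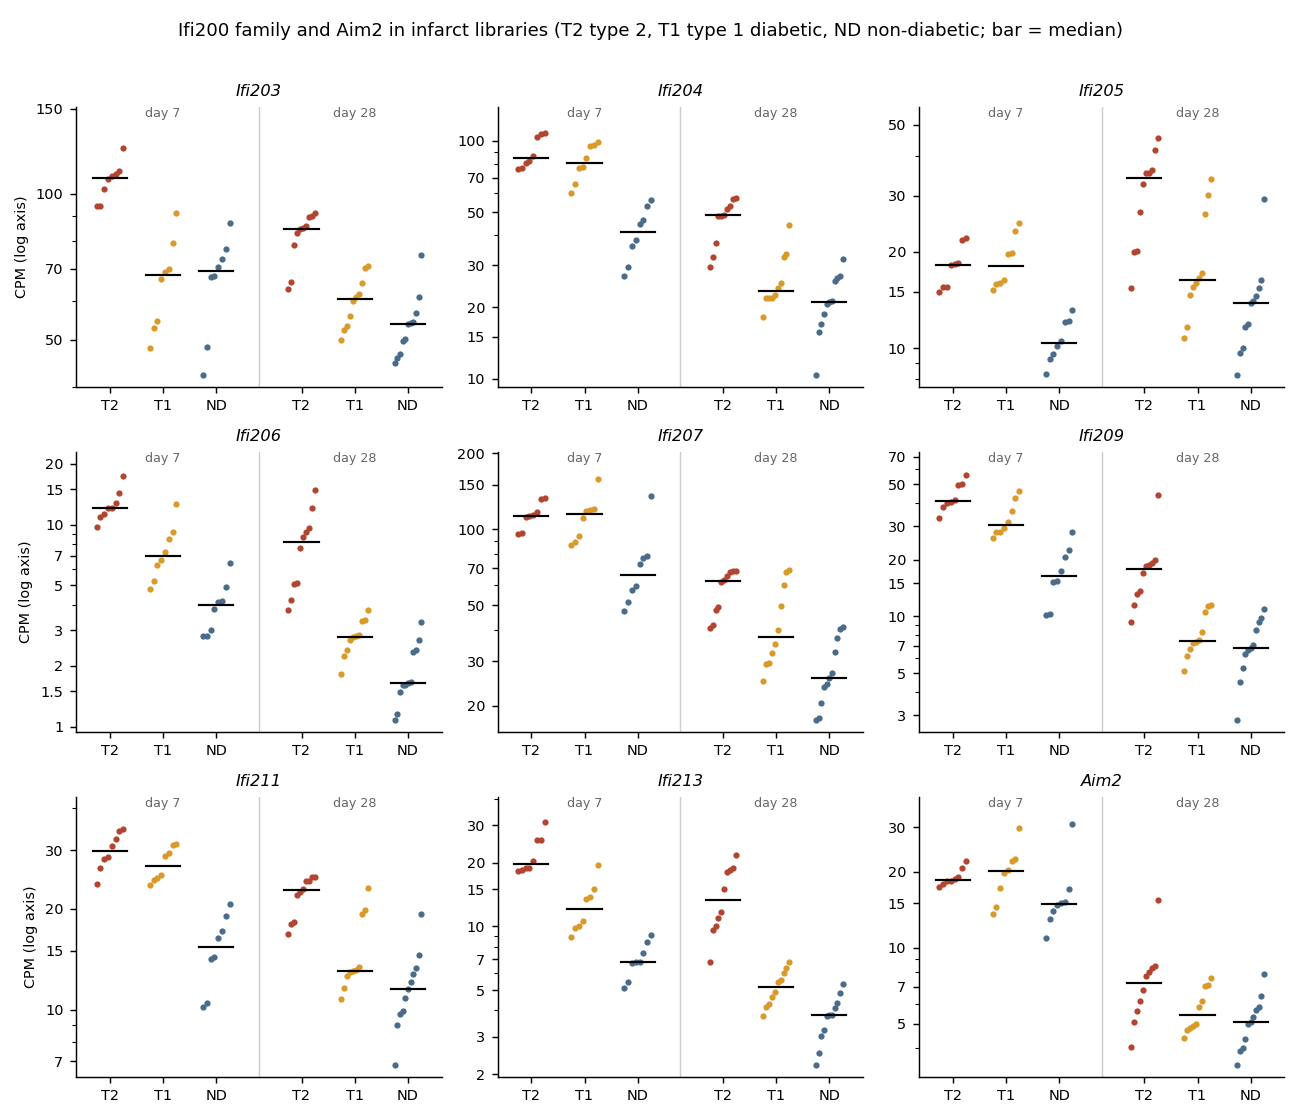
CPM on a log axis for each of the 9 genes in every library (points), by group and day, with T2 for type 2 diabetic, T1 for type 1 diabetic and ND for non-diabetic tissue; the bar is the group median. At day 7 Ifi203 is high in T2 alone, most other genes are high in both T2 and T1, and at day 28 Ifi206 and Ifi213 are high in T2 with no overlap with ND.

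Between type 1 and non-diabetic tissue at day 7, 7 of the 9 genes rose (edgeR, adjusted over 18165 genes), by 0.63 to 0.98 on the log2 scale, and none fell; 11.1% of all genes tested were called higher. The median change of the 9 was 0.83, against -0.011 over all genes tested. In 3 of the 9 (Ifi204, Ifi205 and Ifi211) the groups did not overlap, a pattern that 0.539% of all genes showed. The comparison shares its 8 non-diabetic libraries with the contrast that chose the genes, so its p-values are not independent of that choice. Beside it, macrophage and monocyte markers were also higher and fibroblast markers lower. With the mean level of the macrophage and monocyte markers as a covariate, 0 of the 9 genes were called higher (edgeR), and so was 1 of all 18165 genes tested (0.00551%). The part of these cells in the result was not tested.

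Between type 2 and non-diabetic tissue at day 7, the log2 differences ran from 0.20 for Aim2 to 1.65 for Ifi213, with a median of 0.95 against -0.026 over all genes. Between these ends lay Ifi206 with 1.63 (SE 0.189), Ifi209 with 1.31 (SE 0.173), Ifi204 with 1.11 (SE 0.141), Ifi211 with 0.95 (SE 0.121), Ifi205 with 0.75 (SE 0.119), Ifi203 with 0.67 (SE 0.128) and Ifi207 with 0.64 (SE 0.166). In 7 of the 9 genes the groups did not overlap (1.3% of all genes), and 3.85% of all genes were called higher. Since this contrast is taken to have chosen the genes, nothing is read from these shares. The comparison of type 2 with type 1 tissue at day 7 uses the same type 2 libraries, so its p-values are not independent of that choice. This holds for each of its p-values given below for a single gene of the 9. In this comparison 3 of the 9 were called higher (Ifi213, Ifi206 and Ifi203), as were 1.19% of all genes. In 1 of the 9, Ifi203, the groups did not overlap (0.336% of all genes). The median change was 0.12 for the 9 genes and -0.0035 for all genes. With libraries of 1 group summed wherever their names begin with the same number, none of the 9 was called in this comparison (edgeR).

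At day 28, in other libraries, all 9 genes rose in type 2 over non-diabetic tissue (edgeR, adjusted over 18901 genes), by 0.55 to 2.08 on the log2 scale, with a median of 1.11 against -0.0029 over all genes; 7.21% of all genes were called higher. With the replicate number as a block 8 of the 9 were called, the call of Aim2 being lost (0.51, adjusted p = 0.0758). In 2 of the 9, Ifi206 and Ifi213, the groups did not overlap (0.344% of all genes). Over type 1 tissue, type 2 tissue was higher in 6 of the 9 (2.03% of all genes were called higher), and 1, Ifi206, did not overlap (0.19% of all genes), with a median change of 0.68 against 0.0051. Between type 1 and non-diabetic tissue, 1 gene, Ifi207, rose (2.6% of all genes were called higher) and none was free of overlap (0.138% of all genes), with a median of 0.34 against -0.0035 over all genes. All 9 values of the last comparison were above 0, from 0.15 to 0.64.

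**Figure D3:**
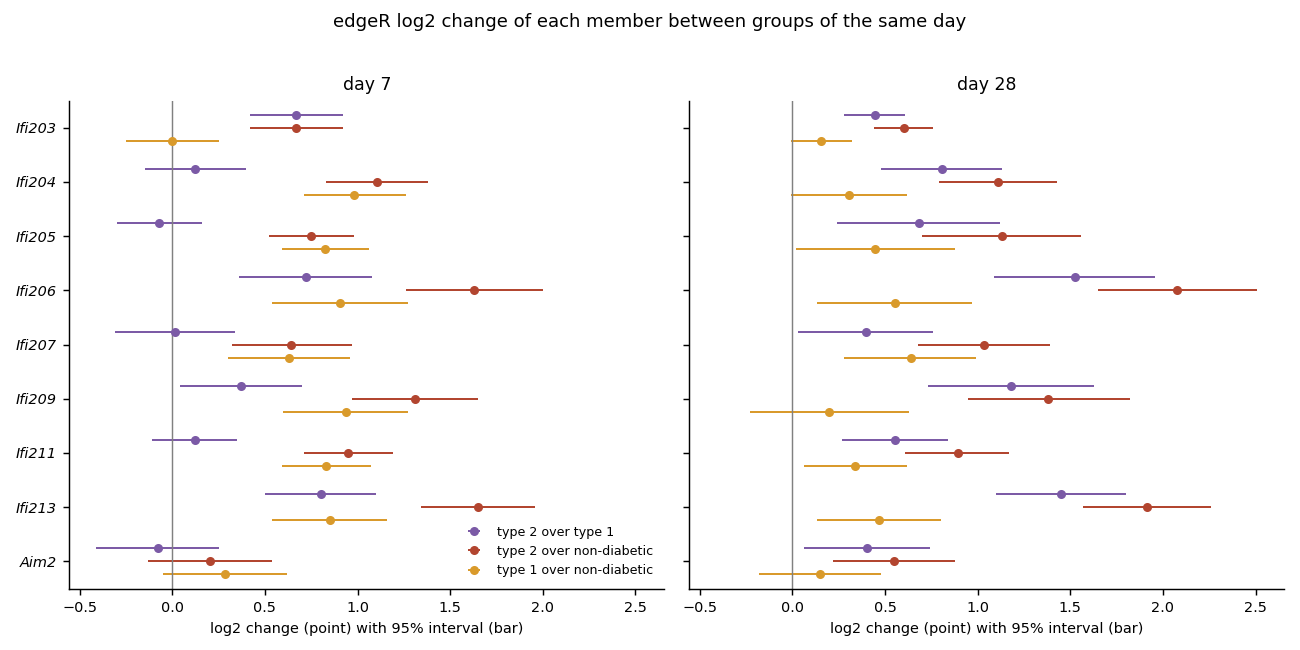
The edgeR log2 change of each gene (point) with its 95% interval (1.96 SE to each side), for type 2 over type 1, type 2 over non-diabetic and type 1 over non-diabetic tissue at day 7 (left) and day 28 (right). Ifi206 and Ifi213 have the highest values of type 2 over non-diabetic tissue on both days (1.63 and 1.65, then 2.08 and 1.92), and type 1 over non-diabetic values lie between 0.15 and 0.64 at day 28.

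Among the 9 genes, Ifi213 and Ifi206 had the largest log2 changes of type 2 over non-diabetic tissue on both days. Ifi213, also known as Pydc4, had 18.3 to 31.2 CPM (median 19.6) in type 2, 8.86 to 19.5 CPM (median 12.1) in type 1 and 5.09 to 9.07 CPM (median 6.78) in non-diabetic libraries at day 7. All 8 type 2 libraries lay above all non-diabetic ones, and 4 of 8 lay above the highest type 1 library. The log2 change was 0.85 (SE 0.157, edgeR adjusted p = 0.000713) for type 1 over non-diabetic tissue and 0.80 (SE 0.154, adjusted p = 0.00796) for type 2 over type 1 tissue.

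At day 28 Ifi213 had 6.77 to 21.8 CPM (median 13.3) in type 2, 3.76 to 6.79 CPM (median 5.16) in type 1 and 2.22 to 5.36 CPM (median 3.82) in non-diabetic libraries. All 10 type 2 libraries were above all 11 non-diabetic ones, and 9 of 10 were above the highest type 1 library. Type 2 tissue was 3.77-fold higher than non-diabetic tissue (log2 change 1.92, SE 0.175, edgeR adjusted p = 8.94e-09) and 2.73-fold higher than type 1 tissue (log2 change 1.45, SE 0.178, adjusted p = 1.52e-05). Over non-diabetic tissue, type 1 tissue gave 0.47 (SE 0.172, adjusted p = 0.117), with all 10 libraries above the non-diabetic mean.

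Ifi206, a family gene with little described function, ran in parallel at a lower CPM. At day 7 it had 9.75 to 17.4 CPM (median 12.1) in type 2, 4.81 to 12.6 CPM (median 6.98) in type 1 and 2.8 to 6.49 CPM (median 3.98) in non-diabetic libraries. Type 1 and non-diabetic libraries overlapped, and type 2 and non-diabetic libraries did not. Its log2 change was 0.90 (SE 0.187, edgeR adjusted p = 0.00168) for type 1 over non-diabetic tissue. For type 2 over type 1 tissue it was 0.72 (SE 0.183, adjusted p = 0.0338), a call that was lost in 7 of 24 fits that each left out 1 library (adjusted p 0.00754 to 0.0819), each of the 7 without a type 1 or a type 2 library.

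At day 28 Ifi206 had 3.78 to 14.8 CPM (median 8.17) in type 2, 1.83 to 3.77 CPM (median 2.79) in type 1 and 1.09 to 3.29 CPM (median 1.65) in non-diabetic libraries. The type 2 libraries lay above every other library of that day. Type 2 tissue was 4.22-fold higher than non-diabetic tissue (log2 change 2.08, SE 0.219, edgeR adjusted p = 1.78e-07) and 2.87-fold higher than type 1 tissue (log2 change 1.52, SE 0.222, adjusted p = 7.51e-05). For type 1 over non-diabetic tissue the value was 0.55 (SE 0.215, adjusted p = 0.139).

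Ifi204 encodes p204, the best studied DNA-binding member of the mouse family. At day 7 it had 75.9 to 107 CPM (median 84.2) in type 2, 60.2 to 99 CPM (median 80.9) in type 1 and 26.9 to 56.2 CPM (median 41.5) in non-diabetic libraries. Both diabetic groups lay above every non-diabetic library and overlapped each other. Type 1 tissue was 1.98-fold higher than non-diabetic tissue (log2 change 0.98, SE 0.140, edgeR adjusted p = 0.000133), and type 2 over type 1 tissue gave 0.12 (95% interval -0.15 to 0.40, adjusted p = 0.653).

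At day 28 Ifi204 had 29.5 to 57.4 CPM (median 48.5) in type 2, 18.2 to 44.1 CPM (median 23.3) in type 1 and 10.4 to 31.8 CPM (median 21.1) in non-diabetic libraries. Of the type 2 libraries, 9 of 10 were above the highest non-diabetic one, and the type 1 libraries overlapped both other groups. The log2 change was 1.11 (SE 0.162, edgeR adjusted p = 2.40e-05) for type 2 over non-diabetic, 0.81 (SE 0.165, adjusted p = 0.00372) for type 2 over type 1 and 0.30 (SE 0.161, adjusted p = 0.297) for type 1 over non-diabetic tissue. The type 1 effect on Ifi204 differed by -0.69 on the log2 scale between day 28 and day 7 (day 28 minus day 7, SE 0.222, edgeR adjusted p = 0.0312 over 20421 genes); 5.5% of all genes were called lower in this difference. Its day 7 side uses the 8 non-diabetic libraries of the contrast that chose the genes, so the p is not independent of that choice, and day and sequencing project cannot be told apart in it. The call was lost in 5 of 37 fits that each left out 1 library (adjusted p 0.00913 to 0.0623). It was also lost without the filter on low counts (-0.69, adjusted p = 0.0518), with libraries that share a name number summed (-0.78, adjusted p = 0.0836) and with the cardiomyocyte covariate, the mean level of those markers (-0.57, adjusted p = 0.0588). With macrophage and monocyte markers as a covariate Ifi204 gave -0.07 (adjusted p = 0.846), and Aim2 was called in the other direction (0.56, adjusted p = 0.0257).

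Across the 9 genes the difference of the type 1 effects, day 28 minus day 7, had a median of -0.39 (-0.75 to 0.15), with 1 of 9 above 0, against -0.0041 over all genes, and shares the same libraries. The difference of the type 2 effects had a median of 0.23 (-0.09 to 0.42), with 6 of 9 above 0; it rests on the contrast that chose the genes and is not tested.

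Ifi209, a pyrin and HIN gene without the exact promoter word, had 33.4 to 55.8 CPM (median 40.8) in type 2, 26 to 46.2 CPM (median 30.6) in type 1 and 10.2 to 27.8 CPM (median 16.4) in non-diabetic libraries at day 7. Of the type 1 libraries, 7 of 8 lay above the highest non-diabetic one. Its type 1 change was 0.93 (SE 0.172, edgeR adjusted p = 0.000676), and type 2 over type 1 tissue gave 0.37 (95% interval 0.04 to 0.70, adjusted p = 0.223).

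At day 28 Ifi209 had 9.32 to 44.1 CPM (median 17.7) in type 2, 5.16 to 11.5 CPM (median 7.42) in type 1 and 2.84 to 10.9 CPM (median 6.78) in non-diabetic libraries. The 44.1 CPM came from type 2 replicate 4, the library with high B cell and T cell markers. The log2 change was 1.38 (SE 0.222, edgeR adjusted p = 8.98e-05) over non-diabetic and 1.18 (SE 0.228, adjusted p = 0.00189) over type 1 tissue, and without that library 1.14 (adjusted p = 0.000132) and 0.94 (adjusted p = 0.00364). For type 1 over non-diabetic tissue it was 0.20 (95% interval -0.23 to 0.63, adjusted p = 0.665).

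Ifi205 and Ifi211 lie close to each other in sequence, and Ifi205 encodes p205, which has been linked to Pycard expression in mouse macrophages. At day 7 Ifi205 had 15 to 22.1 CPM (median 18.2) in type 2, 15.2 to 24.7 CPM (median 18) in type 1 and 8.29 to 13.1 CPM (median 10.4) in non-diabetic libraries. Ifi211 had 23.8 to 34.7 CPM (median 29.7) in type 2, 23.6 to 31.3 CPM (median 27) in type 1 and 10.2 to 20.7 CPM (median 15.4) in non-diabetic libraries. For both genes every diabetic library lay above every non-diabetic one. Type 1 over non-diabetic changes were 0.82 (SE 0.119, edgeR adjusted p = 0.000136) for Ifi205 and 0.83 (SE 0.121, adjusted p = 0.000148) for Ifi211. Type 2 over type 1 values were -0.07 (95% interval -0.30 to 0.16, adjusted p = 0.769) and 0.12 (95% interval -0.11 to 0.35, adjusted p = 0.603).

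At day 28 Ifi205 had 15.4 to 45.4 CPM (median 34) in type 2, 10.7 to 33.9 CPM (median 16.3) in type 1 and 8.26 to 29.4 CPM (median 13.9) in non-diabetic libraries. Ifi211 had 16.9 to 25 CPM (median 22.8) in type 2, 10.8 to 23.1 CPM (median 13) in type 1 and 6.82 to 19.4 CPM (median 11.5) in non-diabetic libraries. All 3 groups overlapped for both genes, with 6 and 7 of 10 type 2 libraries above the highest non-diabetic one. Type 2 over non-diabetic changes were 1.13 (SE 0.220, edgeR adjusted p = 0.000902) for Ifi205 and 0.89 (SE 0.143, adjusted p = 8.31e-05) for Ifi211. Over type 1 tissue, Ifi211 rose by 0.55 (SE 0.146, adjusted p = 0.0293), a call lost in 6 of 31 fits that each left out 1 library, all 6 of them type 1 libraries (adjusted p 0.00737 to 0.062), and Ifi205 gave 0.68 (SE 0.225, adjusted p = 0.0885), which passed in 2 of the 31 fits. Type 1 over non-diabetic tissue gave 0.45 (SE 0.219, adjusted p = 0.253) for Ifi205 and 0.34 (SE 0.142, adjusted p = 0.18) for Ifi211.

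Ifi207, whose protein binds chromatin and has been linked to cytokine transcription in mouse macrophages, had the highest median level per length in type 2 tissue at day 7. On that day it had 95.8 to 133 CPM (median 113) in type 2, 86.8 to 158 CPM (median 114) in type 1 and 47.3 to 135 CPM (median 66.1) in non-diabetic libraries. The highest non-diabetic library, replicate 5, lay above all 8 type 2 libraries and above 7 of the 8 type 1 libraries. The type 1 change was 0.63 (SE 0.166, edgeR adjusted p = 0.00876), and type 2 over type 1 tissue gave 0.01 (95% interval -0.31 to 0.34, adjusted p = 0.978).

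At day 28 Ifi207 had 40.8 to 68.4 CPM (median 62.4) in type 2, 25.1 to 68.9 CPM (median 37.6) in type 1 and 17.6 to 41.1 CPM (median 25.8) in non-diabetic libraries. The highest type 1 library matched the highest type 2 library, and 4 of 10 type 1 libraries were above all non-diabetic ones. Type 2 over non-diabetic tissue rose by 1.03 (SE 0.181, edgeR adjusted p = 0.000271), and type 2 over type 1 tissue gave 0.40 (95% interval 0.03 to 0.76, adjusted p = 0.27). Type 1 over non-diabetic tissue rose by 0.64 (SE 0.181, adjusted p = 0.0407), and this call was lost in 12 of 31 fits that each left out 1 library (adjusted p 0.0219 to 0.0983). It was also lost with the replicate number as a block (0.63, adjusted p = 0.0781).

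Ifi203, which encodes p203 of the same family, was high at day 7 in type 2 tissue alone. It had 94.2 to 125 CPM (median 108) in type 2, 48.1 to 91.4 CPM (median 67.9) in type 1 and 42.2 to 87.3 CPM (median 69.2) in non-diabetic libraries. The type 2 libraries lay above all others, and the type 1 and non-diabetic libraries covered the same range. Type 2 over type 1 tissue rose by 0.67 (SE 0.128, edgeR adjusted p = 0.00793), while type 1 over non-diabetic tissue gave -0.003 (95% interval -0.25 to 0.25, adjusted p = 0.990). Mndal, the neighbouring family gene that shares 37 exonic bases with Ifi203 in the annotation, had the same pattern, with 0.61 (SE 0.111, adjusted p = 0.00544) for type 2 over type 1 and 0.02 (SE 0.111, adjusted p = 0.927) for type 1 over non-diabetic tissue.

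The log2 ratio of Ifi209 to Ifi203 averaged -0.99 ± 0.23 in type 1 and -1.98 ± 0.43 in non-diabetic libraries at day 7 (SD, n = 8 each), a difference of 0.99 (SE 0.17). The ratio of Ifi206 to Ifi203 averaged -3.16 ± 0.23 in type 1 and -4.05 ± 0.30 in non-diabetic libraries, a difference of 0.90 (SE 0.13). These were the 2 of 36 pairs among the 9 genes whose ratios did not overlap between type 1 and non-diabetic libraries at day 7, and depth cancels in such a ratio. At day 28 the ratio of Ifi213 to Ifi203 averaged -2.61 ± 0.41 in type 2 (n = 10) and -3.87 ± 0.23 in non-diabetic libraries (n = 11), and 4 of the 36 pairs did not overlap between these groups, each with Ifi206 or Ifi213 over Ifi203 or Aim2. For type 2 over type 1 tissue, 1 of the 36 pairs did not overlap at day 7 and 2 at day 28. For type 1 over non-diabetic tissue at day 28 it was 0 of 36. No test was made on the ratios. The share over pairs of all genes was not computed, so these counts are a description.

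At day 28 Ifi203 had 63.7 to 91.1 CPM (median 84.7) in type 2, 50 to 70.8 CPM (median 60.6) in type 1 and 44.8 to 74.9 CPM (median 54) in non-diabetic libraries. Of the type 2 libraries, 8 of 10 lay above the highest of each other group. Type 2 tissue rose by 0.60 (SE 0.0818, edgeR adjusted p = 8.11e-06) over non-diabetic and by 0.45 (SE 0.0839, adjusted p = 0.0014) over type 1 tissue. Type 1 over non-diabetic tissue gave 0.15 (95% interval -0.01 to 0.32, adjusted p = 0.296). Its SE was the smallest of the 9 genes on that day.

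Aim2, the inflammasome receptor, had the smallest values of type 2 over non-diabetic tissue on both days. At day 7 it had 17.4 to 22 CPM (median 18.6) in type 2, 13.6 to 29.8 CPM (median 20.1) in type 1 and 10.9 to 30.9 CPM (median 14.9) in non-diabetic libraries. All 3 groups overlapped, and the highest library of the day was non-diabetic replicate 5. Type 1 over non-diabetic tissue gave 0.28 (95% interval -0.05 to 0.62, edgeR adjusted p = 0.236), and without that library 0.49 (SE 0.130, adjusted p = 0.00747). Type 2 over type 1 tissue gave -0.08 (95% interval -0.41 to 0.25, adjusted p = 0.835).

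At day 28 Aim2 had 4.06 to 15.5 CPM (median 7.26) in type 2, 4.37 to 7.6 CPM (median 5.41) in type 1 and 3.44 to 7.83 CPM (median 5.08) in non-diabetic libraries. The groups overlapped, and 4 of 10 type 2 libraries were above the highest non-diabetic one. The type 2 change over non-diabetic tissue was 0.55 (SE 0.170, edgeR adjusted p = 0.0338). It was lost in 8 of 31 fits that each left out 1 library (adjusted p 0.0122 to 0.11), among them the fit without type 2 replicate 4 (0.37, adjusted p = 0.11). It was also lost with the replicate block (0.51, adjusted p = 0.0758), without the filter on low counts (adjusted p = 0.0564), with the 2 groups alone (adjusted p = 0.072), with summed libraries (adjusted p = 0.113) and with the cardiomyocyte covariate (0.25, adjusted p = 0.196). Type 2 over type 1 tissue gave 0.40 (SE 0.174, adjusted p = 0.227) and type 1 over non-diabetic tissue 0.15 (SE 0.170, adjusted p = 0.675).

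Of the 4 other family genes tested, 1 rose in type 1 over non-diabetic tissue at day 7 and 3 in type 2 over non-diabetic tissue at day 28. In the annotation used here (GENCODE M21, GRCm38) the 14 family genes with an identifier lie on chromosome 1 within 681 kb. Ifi208 rose by 1.03 (edgeR adjusted p = 0.00021) in type 1 over non-diabetic tissue at day 7 and by 1.34 (adjusted p = 1.84e-05) in type 2 over non-diabetic tissue at day 28. In type 2 over non-diabetic tissue at day 28 Ifi214 rose by 1.86 (SE 0.527, edgeR adjusted p = 0.0205), at 0.146 to 2.14 CPM in type 2 and 0 to 0.424 CPM in non-diabetic libraries, and Mndal rose by 0.66 (adjusted p = 2.84e-06). The 2.14 CPM of Ifi214 came from type 2 replicate 4, with 0.146 to 0.498 CPM in the other 9 type 2 libraries. Without that library, an alternative chosen after seeing the data, Ifi214 gave 1.23 (SE 0.475, adjusted p = 0.111), and the call was lost. In the same comparison the pseudogene Ifi203-ps gave 0.38 (SE 0.147, adjusted p = 0.0949). Ifi202b, which C57BL/6 mice are known to express at very low levels, had at most 4 counts in any of the 55 libraries and was not tested.

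How shared reads were counted is not given in the sources used here. If each was counted once, the summed level of these 14 genes does not depend on how reads are divided among relatives. At day 7 it was 522 to 625 CPM (median 544) in type 2, 355 to 546 CPM (median 452) in type 1 and 223 to 387 CPM (median 322) in non-diabetic libraries. At day 28 it was 264 to 465 CPM (median 388) in type 2, 192 to 332 CPM (median 222) in type 1 and 142 to 290 CPM (median 196) in non-diabetic libraries. The type 2 libraries at day 7 lay above all non-diabetic ones, and 8 of 10 did at day 28. The log2 ratio of group means was 0.83 at day 7 and 0.89 at day 28 for type 2 over non-diabetic, 0.32 and 0.62 for type 2 over type 1, and 0.50 and 0.27 for type 1 over non-diabetic tissue.

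Within that sum Ifi203 made up 19% ± 2.23 in type 2, 14.8% ± 2.46 in type 1 and 21.3% ± 4.35 in non-diabetic libraries at day 7 (SD, n = 8 each). Ifi213 made up 3.91% ± 0.592 in type 2, 2.79% ± 0.523 in type 1 and 2.20% ± 0.200 in non-diabetic libraries. Ifi204 made up 15.9% ± 1.39 in type 2, 18.1% ± 1.55 in type 1 and 12.9% ± 1.58 in non-diabetic libraries. At day 28 Ifi203 held 22.2% ± 2.00 in type 2, 25.2% ± 2.8 in type 1 and 27.2% ± 2.43 in non-diabetic libraries. Ifi213 held 3.76% ± 1.11 in type 2, 2.17% ± 0.364 in type 1 and 1.87% ± 0.309 in non-diabetic libraries (SD, n = 10, 10 and 11). The share of Ifi203 was thus lowest in type 1 tissue at day 7 and in type 2 tissue at day 28, and that of Ifi213 was highest in type 2 tissue on both days.

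**Figure D4:**
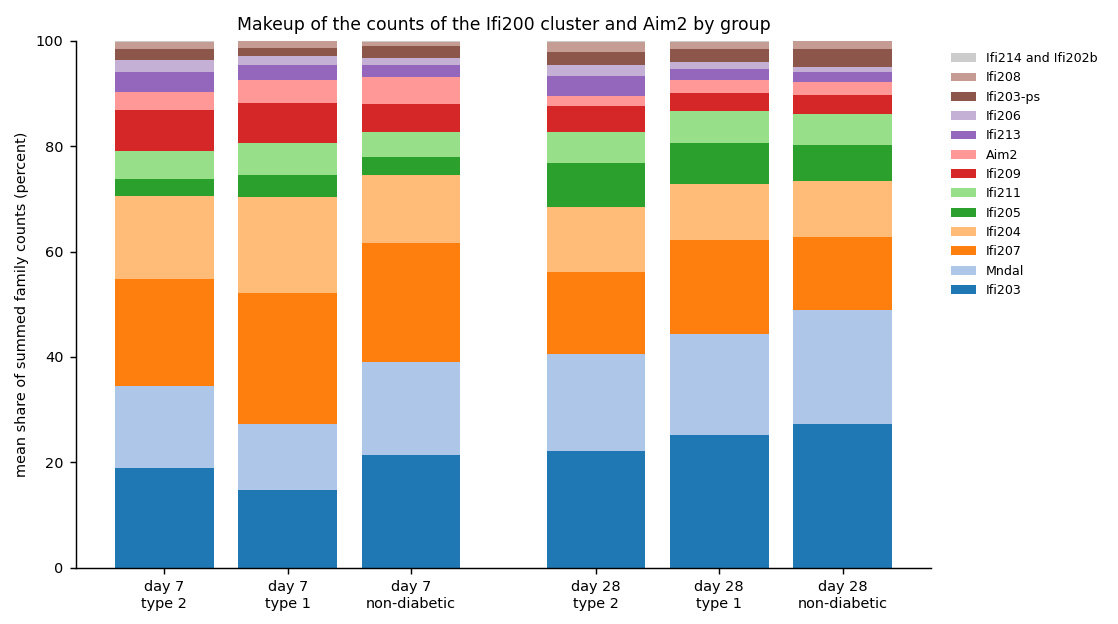
Mean share of each gene in the summed counts of the 14 family genes (y axis, percent), by group. At day 7 Ifi203 takes 19% in type 2, 14.8% in type 1 and 21.3% in non-diabetic tissue, and Ifi213 takes 3.91% in type 2, 2.79% in type 1 and 2.20% in non-diabetic tissue.

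Reads of these relatives can be exchanged. Of all stretches of 50 bases in the transcripts of a gene, 72.8% recurred in another family gene for Ifi211 (44.7% in Ifi205 alone), 33.4% for Ifi209 (all in Ifi214), 19.2% for Ifi204, 18.6% for Ifi205, 15.8% for Ifi206, 15.6% for Ifi213, 12.2% for Ifi203 and 5.39% for Ifi207. Aim2 shared none. Of Ifi206, 9.8% recurred in genes outside the family. How shared reads were assigned is not given in the sources used here, so the single values of Ifi211 and Ifi209, with the highest shares, depend most on this.

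Around the family, 9 of 12 listed inflammasome-related genes rose in type 1 over non-diabetic tissue at day 7 (edgeR). The list is not limited to partners and products of Aim2. The list median was 0.46, and 11.1% of all genes were called higher. Mefv, the pyrin sensor, rose by 1.06 (adjusted p = 0.000503), Il1rn, the interleukin 1 receptor antagonist, by 1.26 (adjusted p = 0.00132), and Casp8, an apoptotic caspase, by 0.39 (adjusted p = 0.00168). In type 2 over non-diabetic tissue at day 28, 3 of the 12 rose: Il1rn by 0.87 (adjusted p = 0.00574), Mefv by 0.97 (adjusted p = 0.0142) and Casp4 by 0.59 (adjusted p = 0.0217). There, 7.21% of all genes were called higher. In type 2 over type 1 tissue at day 28, 2 of the 12 rose, Il1rn and Il18 (2.03% of all genes were called higher). None of the 12 passed in type 1 over non-diabetic tissue at day 28 or in type 2 over type 1 tissue at day 7 (edgeR). In type 2 over non-diabetic tissue at day 7, the contrast that chose the 9 genes, 7 of the 12 rose. The list median was again 0.46, and 3.85% of all genes were called higher.

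Of 25 tested interferon-stimulated genes outside the family, 25 rose in type 2 over non-diabetic tissue at day 28, with a median of 1.04. On that day 24 rose in type 2 over type 1 tissue, with a median of 0.81. Of all genes, 7.21% and 2.03% were called higher in these 2 comparisons. Bst2, which tethers viruses to the cell surface, rose by 1.13 (edgeR adjusted p = 3.53e-09) and Oas2, an activator of RNA decay, by 1.66 (adjusted p = 8.94e-09) in the first of these. In type 1 over non-diabetic tissue 14 of 25 rose at day 7 (median 0.45) and 3 at day 28 (median 0.26). There, 11.1% and 2.6% of all genes were called higher. At day 7, 13 of 25 rose in type 2 over type 1 tissue, with a median of 0.50, and 1.19% of all genes were called higher.

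Of 15 tested genes for interferon ligands, receptors and signalling, 5 rose in type 2 over non-diabetic tissue at day 28, among them Irf7, the master regulator of type I interferon genes (1.99, edgeR adjusted p = 8.35e-10), Usp18, a brake on the receptor (1.2, adjusted p = 2.25e-07), and Irf9, a part of the factor that binds the promoter element (0.67, adjusted p = 5.03e-07). Irf7 was also called in type 1 over non-diabetic tissue, with 0.69 (adjusted p = 0.000612) at day 7 and 0.76 (adjusted p = 0.00438) at day 28. In that comparison 4 of the 15 rose and 1 fell at day 7, and 1 rose and 1 fell at day 28. The falls were Tyk2 (-0.24, edgeR adjusted p = 0.00805) at day 7 and Socs1 (-0.67, adjusted p = 0.0209) at day 28. Of all genes, 11.1% and 2.6% were called higher on these days. The share called lower is not given here. Of 12 other cytosolic nucleic acid sensing genes, 4 rose in type 2 over non-diabetic tissue at day 28, with Zbp1, a sensor of Z-form nucleic acid, at 1.55 (adjusted p = 7.95e-07). In type 1 over non-diabetic tissue at day 7, 3 of the 12 rose and 2 fell, 1 of these being Irf3 (-0.26, adjusted p = 0.0098). Of 9 tested neighbours of the cluster outside the family, 4 rose in type 2 over non-diabetic tissue at day 28. Among them were Slamf9 (0.62, adjusted p = 0.00941) and Slamf8 (0.89, adjusted p = 0.0194), surface receptors of myeloid cells. For each of these lists, 7.21% of all genes were called higher in type 2 over non-diabetic tissue at day 28.

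The genes whose level over libraries was most like the mean of the 9 were Zbp1 (Pearson correlation 0.95 over 24 day 7 libraries and 0.92 over 31 day 28 libraries), Slfn1 (0.92 and 0.93), Gm5431 (0.91 and 0.93), Trim30d (0.93 and 0.90), Oas3 (0.92 and 0.91), Sp100 (0.93 and 0.89), Dhx58 (0.93 and 0.88) and Rtp4 (0.92 and 0.88), out of 12278 genes ranked. The correlations hold across groups and share their libraries, so they are a description.

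Markers of infiltrating cells moved in some of the same comparisons. In type 1 over non-diabetic tissue at day 28, no macrophage, monocyte, neutrophil, T cell or NK cell marker was called (edgeR). Nor was any neutrophil marker called in type 2 over non-diabetic tissue at day 28. B cell markers were called in no comparison. In type 1 over non-diabetic tissue at day 7, 8 of 8 monocyte, 6 of 10 macrophage and 6 of 7 tested neutrophil markers rose and 6 of 8 fibroblast markers fell (edgeR), the fibroblast list with a median of -0.69. The share of all genes called lower is not given here for comparisons within a day. The summed monocyte markers were 497 to 1000 CPM in type 1 and 248 to 473 CPM in non-diabetic libraries, and the macrophage markers 2880 to 3720 CPM in type 1 and 1980 to 3220 CPM in non-diabetic libraries. The summed fibroblast markers were 12400 to 26100 CPM in type 1 and 24700 to 34600 CPM in non-diabetic libraries. At day 7 in type 2 over non-diabetic tissue, 5 of 10 macrophage, 4 of 8 monocyte and 2 of 7 tested neutrophil markers rose. So did 6 of 8 T cell and 6 of 7 NK cell markers, and 2 of 8 fibroblast markers fell. At day 7 in type 2 over type 1 tissue, none of the macrophage markers and none of the monocyte markers rose, 2 of 8 monocyte markers fell, and 3 of 7 NK cell markers rose.

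At day 28 in type 2 over non-diabetic tissue, 8 of 8 T cell, 4 of 7 NK cell, 3 of 8 monocyte and 4 of 10 macrophage markers rose and 3 of 8 fibroblast markers fell. The summed T cell markers were 11 to 106 CPM in type 2 and 5.81 to 29.2 CPM in non-diabetic libraries, the monocyte markers 123 to 337 CPM in type 2 and 122 to 208 CPM in non-diabetic libraries, and the macrophage markers 852 to 1810 CPM in type 2 and 463 to 1390 CPM in non-diabetic libraries. The fibroblast markers were 5890 to 10400 CPM in type 2 and 6780 to 13200 CPM in non-diabetic libraries. Over type 1 tissue on that day, in type 2 tissue 4 of 8 T cell, 3 of 7 NK cell, 3 of 8 monocyte and 1 of 10 macrophage markers rose and 2 of 8 fibroblast markers fell. The T cell markers were 11 to 106 CPM (median 18) in type 2 and 7.84 to 19.2 CPM (median 12.3) in type 1 libraries. The 106 CPM came from type 2 replicate 4, and the marker calls were not refitted without it. No marker on these lists was at 0 throughout a group. With the macrophage and monocyte markers as a covariate, 8 of the 9 family genes were called higher in type 2 over non-diabetic tissue at day 28, against 4.67% of all genes in that fit. Ifi213 was at 1.72 (edgeR adjusted p = 2.31e-06) and Aim2, the exception, at 0.00 (adjusted p = 0.991). Over type 1 tissue 5 of the 9 were called higher in type 2 tissue, against 8.85% of all genes. The part of any of these cell types in the results was not tested.

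**Figure D5:**
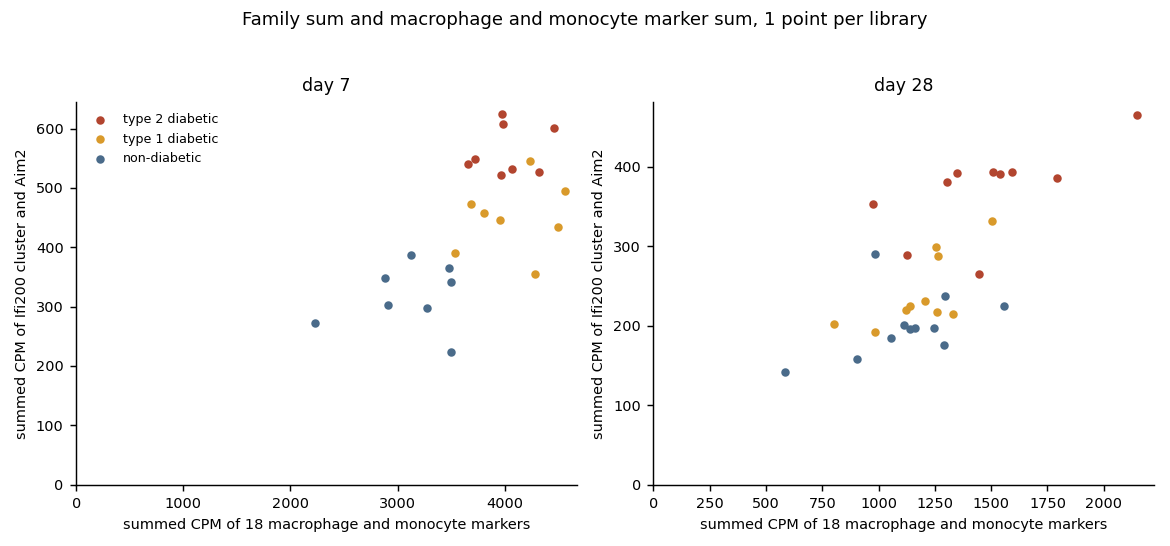
Summed CPM of the 14 family genes (y axis) against summed CPM of 18 macrophage and monocyte markers (x axis), 1 point per library, at day 7 (left) and day 28 (right). At day 7 the marker sum is 3660 to 4460 CPM in type 2, 3540 to 4560 CPM in type 1 and 2230 to 3500 CPM in non-diabetic tissue, and at day 28 it is 975 to 2150 CPM in type 2, 803 to 1500 CPM in type 1 and 585 to 1560 CPM in non-diabetic tissue.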

How the data were processed

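The authors deposited raw counts per Ensembl gene, in 1 table for each day. Per the labels' protocols, RNA was extracted with PureLink columns and sequenced with the TruSeq Stranded mRNA kit, and the submitters' processing notes list the build mm39 and the tool DESeq2. Which aligner, counter, annotation and strand option were used is not given in the sources used here. Of the counts from 1 to 49, 76.4% were even at day 7 and 75.2% at day 28. All columns were mapped to a sample, and 0 were left over.

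The members and lists were chosen with earlier results of these data known. Counts were tested with edgeR 4.0.16 in R 4.3.3, by the quasi-likelihood test with TMM scaling, after filterByExpr (minimum count 10, minimum total 15), with the groups of a day in 1 fit. Adjusted p-values are Benjamini-Hochberg values over all genes tested, called at 0.05. Intervals are 1.96 SE to each side. Log2 levels used a prior count of 2. The day difference of the diabetic effects was fitted on both tables together. The script was tested on simulated counts. Nothing in the labels states that replicates came from different animals, so p-values measure only the spread among libraries, which may be technical.

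Named genes were the 9 members, the other family genes, the 3 genes with the lowest adjusted p among those called in each list and comparison, and the 8 genes with the highest mean correlation with the members (mean log2 CPM of at least 1); genes named outside it were chosen after their values were seen. Alternatives were RLE scaling, no filter, DESeq2 1.42.0, limma 3.58.1 with voom weights, the compared groups alone, the replicate number as a block, summed libraries that share a name number, marker covariates and leaving out each library. Promoter sequences are from RefSeq (GRCm38.p6), and exon lengths and shared 50-base words from GENCODE M21.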

Additional observations from a re-analysis of the deposited data

Results flagged for a closer look

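In 45 sets of a gene and a group, 2 held a library far from the rest of its group, where chance flags about 1 in 20, so 2 flags are no more than chance gives. Aim2 in non-diabetic replicate 5 at day 7 stood at 4.95 log2 CPM, and the next library at 4.10. That library also had the highest summed fibroblast markers (34600 CPM) and the lowest summed cardiomyocyte markers (7520 CPM) of its group, and their part was not tested. Ifi209 in type 2 replicate 4 at day 28 stood at 5.46 log2 CPM, and the next library at 4.32, in the library with 7750 CPM of B cell markers, and their part was not tested. The type 1 effect on Ifi204 gave a difference of -0.69 between the days (day 28 minus day 7, edgeR adjusted p = 0.0312). This p is not independent of how the genes were chosen, since its day 7 side uses the non-diabetic libraries of the choosing contrast, and day and sequencing project cannot be told apart in it. The call was lost in 5 of 37 fits without 1 library, without the filter (adjusted p = 0.0518), with summed libraries (adjusted p = 0.0836) and with either marker covariate (adjusted p = 0.0588 and 0.846).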

How the results depend on the processing

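The number of the 9 genes called kept within 1.5 times under the alternatives, with these exceptions. In type 1 over non-diabetic tissue at day 7, 7 genes became 0 with macrophage and monocyte markers as covariate. In type 2 over type 1 tissue at day 7, 3 became 0 with libraries that share a name number summed. In type 1 over non-diabetic tissue at day 28, 1 became 0 without the filter, 0 with the replicate block, 0 with summed libraries and 2 with limma-voom. In the type 1 effect at day 28 minus day 7, 1 became 0 without the filter, 0 with summed libraries and 0 with the cardiomyocyte covariate, and with the macrophage and monocyte covariate 1 was called in the other direction. The causes were not tested.

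With 1 library left out, the calls were 7 to 8 (type 1 over non-diabetic), and 2 to 3 (type 2 over type 1) at day 7, and 0 to 1, 8 to 9 and 5 to 7 (type 1 over non-diabetic, type 2 over non-diabetic, type 2 over type 1) at day 28, and 0 to 3 for the type 1 effect. Single genes changed sign near 0 in such fits: Ifi203 (-0.08 to 0.06), Aim2 (-0.15 to 0.04), Ifi205 (-0.13 to 0.00) and Ifi207 (-0.03 to 0.11) at day 7, the last 3 in type 2 over type 1 tissue, and Ifi207 in the type 1 effect (-0.19 to 0.08).

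Other signs turned as follows. In type 1 over non-diabetic tissue at day 7, Ifi203 gave 0.00 with RLE scaling, DESeq2 and the block, 0.02 summed, 0.15 with the cardiomyocyte and 0.41 with the macrophage and monocyte covariate; Aim2 gave -0.02 and -0.62 with these covariates, and Ifi207 -0.29 with the second. In type 2 over non-diabetic tissue at day 7 the second gave -0.02 for Ifi207 and -0.43 for Aim2. In type 2 over type 1 tissue, Ifi207 gave -0.01 summed, Ifi205 0.02 and 0.06 and Aim2 0.19 and 0.19 with the 2 covariates at day 7, and Aim2 -0.09 with the second at day 28. In the type 1 effect, Ifi207 gave 0.05 with limma-voom, 0.16 and 0.55 with the covariates, Aim2 0.16 and 0.56, and Ifi205, Ifi206 and Ifi209 0.06, 0.06 and 0.07 with the second. In the type 2 effect, limma-voom gave 0.00, 0.01 and 0.03 for Ifi203, Ifi204 and Ifi211, the cardiomyocyte covariate -0.01 for Ifi209 and the second 0.04 for Ifi204.

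With the replicate number as a block, 7 and 3 genes were called at day 7 and 0, 8 and 6 at day 28. The numbers were not taken as pairs: deviations of same-numbered libraries correlated at a median of 0.09 at day 7 (-0.37 to 0.37) and 0.02 at day 28 (-0.42 to 0.34). Ifi202b had too few counts in every group to be tested.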
